A study of Mus musculus with 6 samples.

Results

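The genes described here encode the core of the NF-kappaB pathway: the 5 transcription factor subunits (Rela, Relb, Rel, Nfkb1, Nfkb2), 3 IkappaB inhibitors (Nfkbia, Nfkbib, Nfkbie) and the 2 catalytic IkappaB kinases (Chuk, Ikbkb). They were chosen by name, as 10 of the 55401 gene identifiers in the count table, and all 10 were among the 14661 genes with enough counts to test. RNA came from a single mouse cell line, ADC106, labelled as angiosarcoma (a cancer of the endothelium), that had received small double-stranded RNAs called microRNA mimics. Of the 6 libraries, 3 came from cells given an NC mimic, with the labelled genotype WT, and 3 from cells given a miR-497 mimic, labelled as overexpressing miR-497. The dose in both groups was 12.5 nM and RNA was taken on day 3. No untransfected cells were analysed here, so every change is relative to the NC mimic. The labels do not say whether the libraries of a group came from separate cultures, so the p-values measure only the spread between these libraries, which may be technical.

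NF-kappaB is a family of dimeric transcription factors that drives inflammatory, survival and adhesion genes, and in endothelial cells it is best known for the leukocyte adhesion molecules and chemokines made after cytokine exposure. In resting cells the IkappaB proteins hold the dimers in the cytoplasm. Receptor signals activate the IkappaB kinases, which mark IkappaB for ubiquitination and degradation and so release the dimers to the nucleus. In the canonical branch this is done mainly by Ikbkb with the scaffold Ikbkg, and it frees Rela and Rel paired with the processed product of Nfkb1. In the non-canonical branch Map3k14 activates Chuk, which leads to processing of the Nfkb2 precursor and nuclear entry of its product with Relb. Most of this control acts on proteins, which RNA counts do not measure.

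MicroRNAs pair with messenger RNAs through the seed, bases 2 to 8 from their 5′ end, and usually lower the level of the paired messenger. The mature miR-497a-5p of RefSeq (GRCm38.p6, chr11:70234730-70234751, plus strand) is shown with its seed in capitals, beside miR-195a-5p, its neighbour on the same strand (chr11:70235062-70235082), which has the same seed. The labels do not give the sequence of the mimic.
mmu-miR-497a-5p: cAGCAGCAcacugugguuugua
mmu-miR-195a-5p: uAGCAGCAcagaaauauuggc
The seed pairs with TGCTGCT (a 7mer-m8 match), with GCTGCTA (a 7mer-A1 match) or with TGCTGCTA (an 8mer, which contains both). In the longest annotated 3′ UTR of each gene (GENCODE M21, GRCm38), 4 of the 10 genes had at least one such match: Nfkb1, Rel, Ikbkb and Nfkbib. Of the 12859 tested genes with a 3′ UTR, 3617 (28.1%) had one. The matches are shown as the sense strand with 10 bases on each side and the match in capitals. They are matches to the RefSeq seed, and pairing with the mimic was not tested.
Nfkb1 (8mer, chr3:135585078-135585085, minus strand): gagctttctcTGCTGCTActggatcaca
Rel (8mer, chr11:23740040-23740047, minus strand): ggcttggtccTGCTGCTAcagctgagag
Rel (7mer-m8, chr11:23739749-23739755, minus strand): tctggtcgacTGCTGCTcttcctcctc
Ikbkb (7mer-m8, chr8:22660850-22660856, minus strand): tcctaactccTGCTGCTtctcacttgt
Nfkbib (7mer-m8, chr7:28758277-28758283, minus strand): ctattttgatTGCTGCTcccaactgag
The Nfkb1 match began at base 323 of a 3′ UTR of 751 bases, and the Rel matches at bases 2218 and 2510 of 5418. In Ikbkb the match began at base 534 of 1622, and in Nfkbib at base 731 of 763. Taking the shortest 3′ UTR of each gene left 1 member with a match, Rel, against 16.6% of the tested genes with a 3′ UTR. No such match lay in the longest 3′ UTR of Rela, Relb, Nfkb2, Nfkbia, Nfkbie or Chuk, which says only that these letters were not there.

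Depth was 25777676 to 36159499 counts per library. Levels are given as CPM, counts scaled to library size, whose log2 values correlated at 0.987 or above within groups and at 0.970 or below between them. Markers were counted as detected at a mean of 1 CPM in either group. All 12 endothelial markers were detected, in sum at 9969 to 10679 CPM with NC and 9647 to 10141 with miR-497, but single markers moved both ways: 7 rose, among them Emcn (log2 change 1.03) and Cldn5 (1.02), and 4 fell, among them Pecam1 (-0.52). Of 7 leukocyte markers, 2 reached 1 CPM (Cd68 and Csf1r). Itgam and Cd3e were among those at 0, and the leukocyte sum was 9.34 to 9.71 CPM with NC and 15.7 to 20.97 with miR-497, with Cd68 going from 8.25 to 17.5 CPM and Csf1r from 1.06 to 0.909 CPM. The fibroblast and mural list had 3 of 6 markers detected (Lum at 0), with sums of 154 to 166 against 181 to 216 CPM. In that list Col1a1 rose (0.84), Pdgfrb fell (-0.37) and Pdgfra did not pass the test (0.10). A marker at 0 is not read as absent, for the reason given with the ligands below. The 4 epithelial markers were all below 1 CPM in mean, with at most 14 counts in any library. The mitochondrial share of counts was 2.03% to 2.15% with NC and 2.94% to 3.77% with miR-497. The part of these differences in the results was not tested, and in bulk RNA fewer cells of a type and less RNA per cell cannot be told apart.

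Of the 10 genes, 4 rose with miR-497 (Nfkbib, Rela, Relb, Nfkb2), 3 fell (Nfkb1, Chuk, Ikbkb) and 3 did not pass the test (Rel, Nfkbia, Nfkbie), by edgeR's quasi-likelihood test at an adjusted p under 0.05. The called share was 7 of 10, read against 49.8% of all tested genes called in either direction, 23.8% higher and 26.0% lower. In 9 of the 10 genes the libraries of the groups did not overlap, against 57.4% of all tested genes. The changes were small: no member changed 2-fold, and the median absolute log2 change was 0.26 for the members and 0.34 for all tested genes. The median signed log2 change was -0.015 for the members and -0.019 for all tested genes. Each role had members that moved up and members that moved down or did not pass the test, except the kinases, which both fell.

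**Figure D1:**
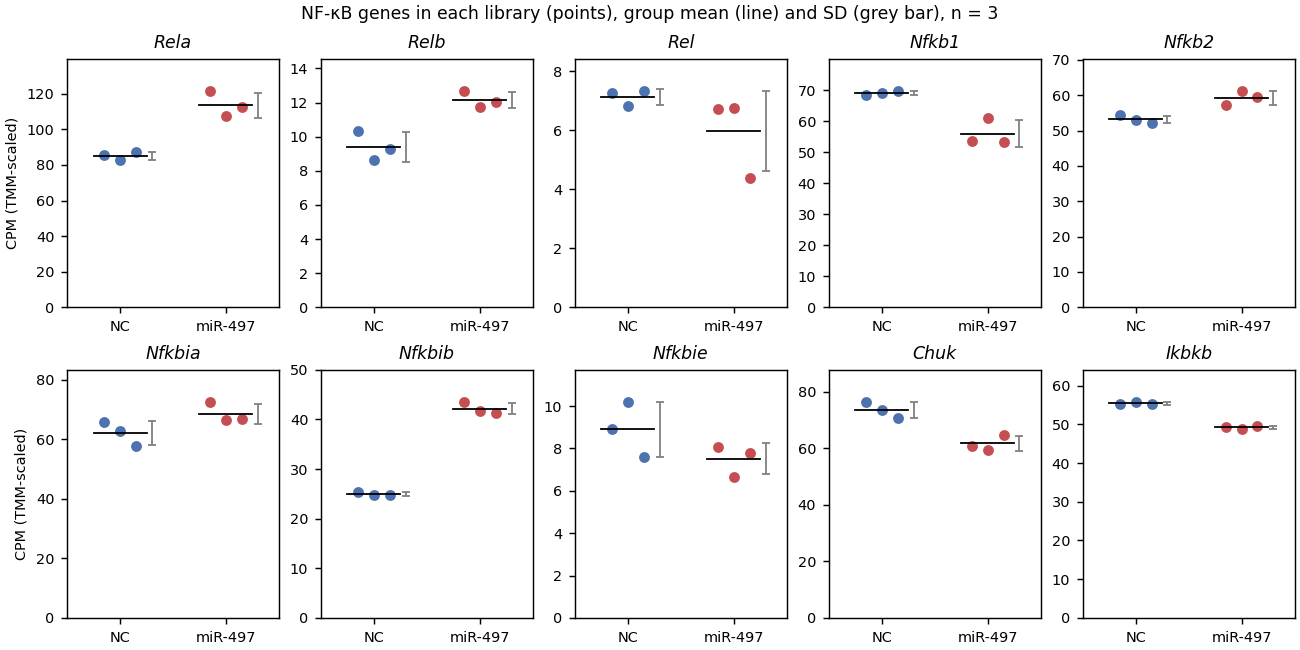
CPM of each of the 10 genes by library, with points for the 3 NC and 3 miR-497 libraries and bars for the group mean and SD; each panel has its own axis starting at 0. The miR-497 libraries of Nfkbib (41.3 to 43.5 CPM) all lay above the NC libraries (24.8 to 25.3 CPM), whereas those of Nfkbie overlapped.

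Rela (p65, ENSMUSG00000024927, chr19:5637483-5648130, plus strand) carries the strong activation domain of the canonical dimer. It was at 85.7, 82.9 and 87.1 CPM in the NC libraries and at 121, 107 and 112 CPM in the miR-497 libraries. Every miR-497 library was above every NC library. Its mean rose from 85.2 ± 2.15 to 114 ± 7.05 CPM (SD, n = 3 each), a log2 change of 0.42 (SE 0.0584; 95% interval 0.29 to 0.54; edgeR adjusted p = 1.56e-05), or 1.33-fold.

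Relb (ENSMUSG00000002983, chr7:19606217-19629438, minus strand), the partner of the Nfkb2 product in the non-canonical branch, was a low-count gene with 261 to 373 counts per library. It was at 10.3, 8.63 and 9.27 CPM with NC and at 12.7, 11.7 and 12.0 CPM with miR-497. The groups did not overlap, with NC replicate 1 the closest to the miR-497 libraries. The log2 change was 0.37 (SE 0.117; 95% interval 0.12 to 0.61; edgeR adjusted p = 0.0155). Without NC replicate 2, its lowest library, the change was 0.31 and the edgeR adjusted p was 0.0726.

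Rel (c-Rel, ENSMUSG00000020275, chr11:23736847-23770970, minus strand), the third subunit with an activation domain and best known from lymphocytes, was the lowest of the 10 genes in CPM. It was at 7.27, 6.82 and 7.32 CPM with NC and at 6.72, 6.77 and 4.40 CPM with miR-497. The groups did not overlap, but miR-497 replicates 1 and 2 lay just under the lowest NC library and miR-497 replicate 3 far below. The log2 change of -0.26 (SE 0.174; 95% interval -0.63 to 0.11; edgeR adjusted p = 0.230) did not pass the test, and without miR-497 replicate 3 it was -0.078. This is the gene with an 8mer and a 7mer-m8 match in its long 3′ UTR.

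Nfkb1 (ENSMUSG00000028163, chr3:135584655-135691547, minus strand) encodes the p105 precursor, itself an inhibitor, and p50, the DNA-binding partner of Rela. It was at 68.4, 69.0 and 69.5 CPM with NC and at 53.6, 61.0 and 53.2 CPM with miR-497. The NC libraries lay close together, and all were above the miR-497 libraries. It fell by 0.30 on the log2 scale (SE 0.0673; 95% interval -0.44 to -0.16; edgeR adjusted p = 0.00124), from 69.0 ± 0.580 to 55.9 ± 4.42 CPM. The annotated 8mer shown above lies in 2 of its 3 transcripts with a 3′ UTR.

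Nfkb2 (ENSMUSG00000025225, chr19:46304320-46312385, plus strand) encodes p100, the precursor and inhibitor of the non-canonical branch. It was at 54.2, 53.1 and 52.1 CPM with NC and at 57.2, 61.0 and 59.4 CPM with miR-497. The miR-497 libraries were all higher, by a small margin. The log2 change was 0.16 (SE 0.0627; 95% interval 0.02 to 0.29; edgeR adjusted p = 0.0485), just inside the threshold, and the call was kept in 8 of 15 alternative analyses. It was lost on leaving out any single library except miR-497 replicate 1 (edgeR adjusted p = 0.0782 to 0.122). Of its exon bases, 18.1% lie opposite exons of other genes on the other strand, Psd (11.8 CPM in both groups) and the weakly counted AC114539.1, and the strand setting of the counting is not given in the sources used here.

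Among the inhibitors, Nfkbib had the largest change of the 10 genes. Nfkbib (IkappaB-beta, ENSMUSG00000030595, chr7:28758251-28767512, minus strand) holds Rela and Rel dimers and is known for slower turnover than IkappaB-alpha. It was at 25.3, 24.8 and 24.8 CPM with NC and at 43.5, 41.7 and 41.3 CPM with miR-497. The groups were far apart relative to their spread, at 24.97 ± 0.322 and 42.2 ± 1.17 CPM. The log2 change was 0.76 (SE 0.0684; 95% interval 0.61 to 0.90; edgeR adjusted p = 1.09e-07), or 1.69-fold, and its size exceeded that of 81.4% of tested genes. The 7mer-m8 match shown above is in 1 of its 2 transcripts with a 3′ UTR. Opposite-strand exons cover 16.4% of its exon bases, those of Sirt2 (53.2 to 59.6 CPM, log2 change 0.16, edgeR adjusted p = 0.0480) and of Ccer2, which had 1 to 8 counts per library.

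Nfkbia (IkappaB-alpha, ENSMUSG00000021025, chr12:55489410-55492647, minus strand) is the rapidly degraded inhibitor whose gene is itself a classic NF-kappaB target. It was at 65.8, 62.9 and 57.8 CPM with NC and at 72.6, 66.4 and 66.8 CPM with miR-497. The lowest miR-497 library was just above the highest NC library. The log2 change of 0.14 (SE 0.0673; 95% interval -0.00 to 0.28; edgeR adjusted p = 0.0945) did not pass the test. With upper-quartile scaling, it did, at 0.19 and an edgeR adjusted p of 0.0295.

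Nfkbie (IkappaB-epsilon, ENSMUSG00000023947, chr17:45555703-45563169, plus strand), also an NF-kappaB-induced inhibitor, was at 8.90, 10.2 and 7.60 CPM with NC and at 8.08, 6.67 and 7.78 CPM with miR-497. It was the only member whose groups overlapped, with NC replicate 3 below miR-497 replicates 1 and 3. The log2 change of -0.25 (SE 0.146; 95% interval -0.56 to 0.06; edgeR adjusted p = 0.167) did not pass the test at 203 to 372 counts per library, and it was -0.13 without NC replicate 2.

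Both catalytic kinases fell by small amounts. Chuk (IKK-alpha, ENSMUSG00000025199, chr19:44073335-44107480, minus strand), the kinase of the non-canonical branch, was at 76.3, 73.5 and 70.6 CPM with NC and at 60.9, 59.4 and 64.7 CPM with miR-497. The groups did not overlap. It fell by 0.25 on the log2 scale (SE 0.0626; 95% interval -0.39 to -0.12; edgeR adjusted p = 0.00280), from 73.5 ± 2.84 to 61.7 ± 2.73 CPM. The call was lost with a replicate block and GC and length offsets together (-0.17, edgeR adjusted p = 0.0699). No match to the seed lay in its longest 3′ UTR.

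Ikbkb (IKK-beta, ENSMUSG00000031537, chr8:22659212-22706589, minus strand), the main canonical kinase, was at 55.2, 55.7 and 55.1 CPM with NC and at 49.3, 48.7 and 49.5 CPM with miR-497. Libraries within a group differed by less than 1 CPM and the groups did not overlap. It fell by 0.17 on the log2 scale (SE 0.0621; 95% interval -0.30 to -0.04; edgeR adjusted p = 0.0306). The call was kept in 7 of 15 alternative analyses. It was lost without NC replicate 2 (edgeR adjusted p = 0.105), NC replicate 3 (0.0797) or miR-497 replicate 2 (0.0594), and with upper-quartile scaling the change was -0.12 (edgeR adjusted p = 0.104). Its 7mer-m8 match is in 1 of its 3 transcripts with a 3′ UTR. So of the 4 members with a match in the longest 3′ UTR, Nfkb1 and Ikbkb fell, Nfkbib rose and Rel did not pass the test. Over the 12859 tested genes with a 3′ UTR, the median log2 change was -0.17 with a match and 0.02 without.

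**Figure D2:**
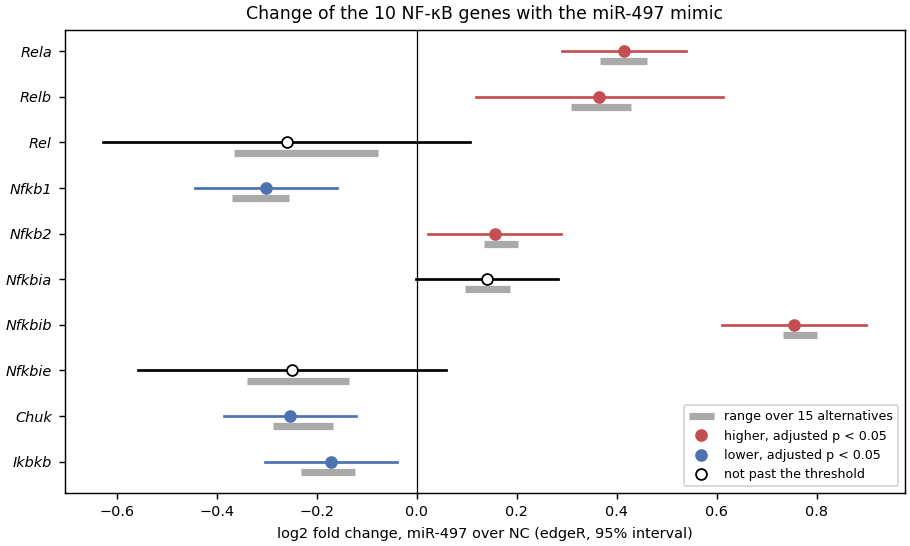
Log2 change of each of the 10 genes (miR-497 over NC) with its 95% interval from edgeR; grey bars give the range over the 15 alternative analyses and open points did not pass an adjusted p of 0.05. Nfkbib at 0.76 lies farthest from 0, and the intervals of Rel, Nfkbia and Nfkbie reach 0.

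**Figure D3:**
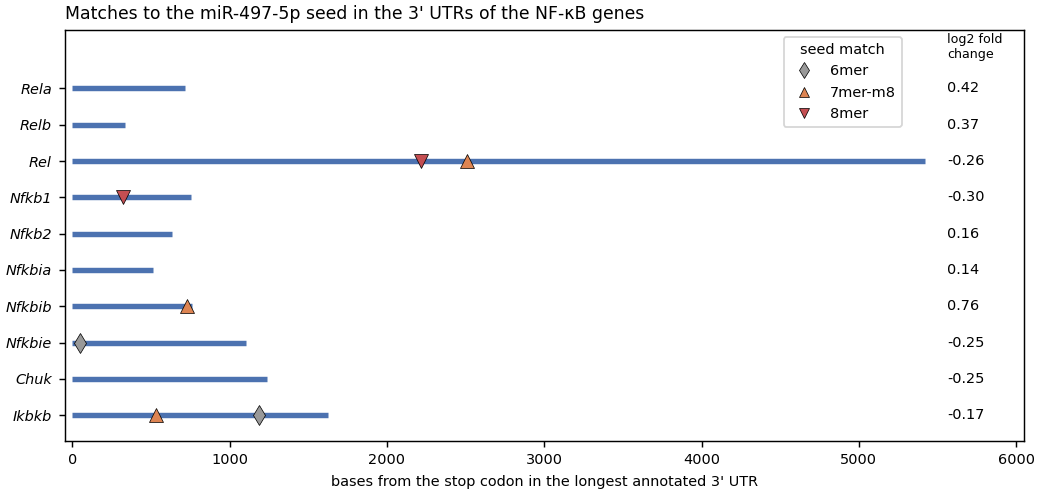
Longest annotated 3′ UTR of each member, drawn to scale in bases from the stop codon, with the matches to the miR-497-5p seed marked by kind and the log2 change beside each gene. Nfkb1, Rel, Ikbkb and Nfkbib carry matches of 7 or 8 bases; the 6mers of Nfkbie and Ikbkb were not counted.

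Levels of different genes were set side by side as CPM per kilobase of merged exons. With NC, Nfkbia was highest at 38.6 CPM per kilobase, followed by Rela at 27.7, Chuk at 14.4, Nfkb2 at 11.6, Nfkbib at 11.5 and Nfkb1 at 5.72. Nfkbie at 2.92, Ikbkb at 2.90, Relb at 2.42 and Rel at 0.956 CPM per kilobase were lowest. Neighbours in this order were separated in every library except Nfkb2 and Nfkbib, and Nfkbie and Ikbkb, whose ranges overlapped. With miR-497 the order began with Nfkbia (42.6), Rela (37.0) and Nfkbib (19.4 CPM per kilobase): Nfkbib moved from rank 5 to rank 3 and Chuk, at 12.1, from rank 3 to rank 5. Relb moved from rank 9 to rank 7 and Nfkbie from rank 7 to rank 9. The overlapping neighbours were then Nfkb2 and Chuk, and Ikbkb and Nfkbie. The length used matters for Ikbkb, whose merged exons span 19078 bases and whose longest protein-coding transcript spans 3977 bases, and for Nfkb1 (12061 and 4117 bases). By that transcript Ikbkb was at 13.9 and Nfkb1 at 16.8 CPM per kilobase with NC, and 39 of the 45 pairs of members kept their order.

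Ratios within a library compare members without the scaling between libraries. They are given as log2 ratios of CPM with no test. Per Rela, Nfkbia went from -0.46 ± 0.117 with NC to -0.73 ± 0.0307 with miR-497, and Nfkbie from -3.27 ± 0.247 to -3.92 ± 0.0793 (SD, n = 3 each). Both were lower in every miR-497 library. Nfkbib per Rela went the other way, from -1.77 ± 0.0393 to -1.43 ± 0.0581, higher in every miR-497 library. Rela, the denominator of these ratios, itself rose (log2 change 0.42), whereas Nfkbia (0.14) and Nfkbie (-0.25) did not pass the test. Nfkb2 per Nfkb1 went from -0.38 ± 0.0407 to 0.08 ± 0.0797: Nfkb1 had more CPM than Nfkb2 in each NC library and no more than Nfkb2 in each miR-497 library. That order depends on the length used. Per kilobase of merged exons Nfkb2 was above Nfkb1 with NC (11.6 and 5.72) and with miR-497 (12.9 and 4.64). By the longest protein-coding transcript Nfkb1 was above with NC (16.8 and 13.8) and Nfkb2 with miR-497 (15.4 and 13.6). Rel per Rela went from -3.58 ± 0.0228 to -4.28 ± 0.355, with the lowest value in miR-497 replicate 3. Relb per Rela (-3.18 and -3.23) and Chuk per Ikbkb (0.41 and 0.33) overlapped between groups.

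**Figure D4:**
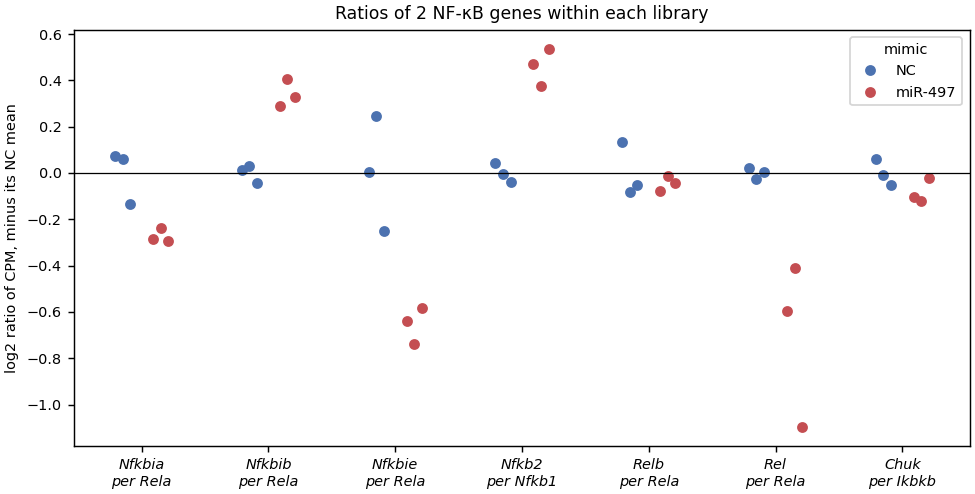
Log2 ratio of CPM for 7 fixed pairs of members in each library, minus the mean of that ratio over the NC libraries. The groups are apart for the 3 inhibitors per Rela, Nfkb2 per Nfkb1 and Rel per Rela, and overlap for Relb per Rela and Chuk per Ikbkb.

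NF-kappaB dimers bind the kappaB element, and several of these genes are known to be under their control. In the RefSeq promoter table (GRCm38.p6, 250 bases before to 50 after each start), 7 of the 10 members were matched. The loose form GGGNNNNNCC, on either strand, was in 8 of the 9 promoters of these members, covering 6 of the 7, and in 50.8% of the 32851 promoters. The stricter kappaB consensus was in 6 of the 9 member promoters, covering 4 of the 7 members (Nfkb2, Rel, Nfkbia, Nfkbie), and in 8.46% of all promoters. Matches on both strands can overlap, and every strict match is also a loose one. Nfkb2 has several of the promoters counted. Of these, chr19:46305445-46305744 and chr19:46305680-46305979 overlap and share the strict match at chr19:46305705-46305714, which is counted for both. One match for each of Nfkbia, Rel and Nfkbie and 3 of the matches of Nfkb2 are shown on the gene's strand with the element in capitals.
Nfkbia (chr12:55492667-55492676, minus strand): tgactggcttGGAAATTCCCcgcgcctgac
Nfkb2 (chr19:46304698-46304707, plus strand): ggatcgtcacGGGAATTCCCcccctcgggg
Nfkb2 (chr19:46304726-46304735, plus strand): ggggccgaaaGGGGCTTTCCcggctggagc
Nfkb2 (chr19:46305705-46305714, plus strand): tggtattttcGGGACTTTCCtaagcagcac
Rel (chr11:23771052-23771061, minus strand): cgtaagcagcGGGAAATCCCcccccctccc
Nfkbie (chr17:45555594-45555603, plus strand): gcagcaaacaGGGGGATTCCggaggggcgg
Of these 4 genes with a strict match, Nfkb2 rose, and Rel, Nfkbia and Nfkbie did not pass the test. Nfkb1, Relb and Ikbkb had no promoter to search, so they are not known to lack the element. A match is a description of letters and not a measured binding site.

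The genes whose levels were most like those of Nfkbia and Chuk were sought among 10219 tested genes by Pearson's r of log2 CPM over the 6 libraries. For Nfkbia they were Znf41-ps (0.995), Serpinb8 (0.991), Ranbp6 (0.988), Bbip1 (0.982) and Dcps (0.982). For Chuk they were BC037034 (0.997), Pex5 (0.994), Gsap (0.993), Hps1 (0.992) and Pkmyt1 (0.992). The points share their libraries and the difference between the groups, so these values are a description.

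Upstream of the members, of 23 listed receptors and adaptors 22 were tested, 5 rose, 10 fell and 7 did not pass the test. These are 22.7% higher and 45.5% lower, beside 23.8% and 26.0% of all tested genes. The median log2 change was -0.17 against -0.019 for all tested genes, and -0.11 without miR-497 replicate 1. Genes of the TNF receptor family went both ways: Tnfrsf1b rose from 26.2 to 71.96 CPM (log2 change 1.45, edgeR adjusted p = 8.78e-11) and Tnfrsf1a from 257 to 298 CPM (0.21), whereas Tnfrsf12a, the TWEAK receptor, fell from 190 to 81.2 CPM (-1.23, edgeR adjusted p = 8.78e-11). The adaptors Ticam1 (0.39), Tradd (0.31) and Traf6 (0.30) rose. Tlr3, the receptor for double-stranded RNA, fell from 89.2 to 42.6 CPM (-1.07), and Il1r1 (-0.56) and Tlr4 (-0.54) fell as well. Traf3, which keeps Map3k14 protein low in resting cells, fell from 31.7 to 16.8 CPM (-0.91, edgeR adjusted p = 4.92e-08). Its longest 3′ UTR holds 5 matches to the seed, a pair of them overlapping and 3 of them 8mers. The 8mers are printed because no other searched gene named from the lists had as many. Malt1, also named from the lists, was not searched for matches. Of the other searched genes named, those with a match in the longest 3′ UTR went both ways. Traf6, Ikbke and Itch rose, and Il1r1, Tlr4, Card10, Tab3, Tnfaip3 and Irf1 fell.
Traf3 (8mer, chr12:111263343-111263350, plus strand): ttgaagcctcTGCTGCTAaatattcaca
Traf3 (8mer, chr12:111266227-111266234, plus strand): ccccggctgcTGCTGCTAgccacgagga
Traf3 (8mer, chr12:111267059-111267066, plus strand): gtttctgttcTGCTGCTAataataaagt
Of 11 listed ligands, Il18 and Il33 were the 2 with enough counts to test and neither passed (log2 changes 0.23 and 0.37), and Tnf had 0 to 1 counts per library. Myd88 and Tnfsf12 are listed at 0 in all 6 libraries, as is G6pdx, an enzyme gene that every cell uses, so a 0 in this table is not read as absence.

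The other kinases and scaffolds held the regulatory partner of the 2 kinases described above. Of 14, 3 rose (21.4%), 4 fell (28.6%) and 7 did not pass the test, shares near those of all tested genes (23.8% and 26.0%). The median log2 change was -0.012, and it lay between -0.042 (without miR-497 replicate 2) and 0.016 (without miR-497 replicate 3) when 1 library was left out. Ikbkg (NEMO), the scaffold of the IkappaB kinase complex, was at 43.7, 44.6 and 43.0 CPM with NC and at 75.01, 76.1 and 85.1 CPM with miR-497. Its groups were far apart (log2 change 0.85, SE 0.0670, edgeR adjusted p = 2.20e-08), while both catalytic subunits fell. Of its exon bases, 5.15% lie opposite G6pdx exons. Map3k14 (NIK), the kinase of the non-canonical branch, rose from 14.2 to 25.6 CPM (0.85, edgeR adjusted p = 3.19e-07), and Ikbke rose by 0.57. Card10, a scaffold of the Bcl10 complex, fell from 145 to 86.3 CPM (-0.75) and Tbk1 fell by 0.46. Tab3, an adaptor of the kinase Map3k7, fell from 17.7 to 13.5 CPM (-0.38, edgeR adjusted p = 0.00584). Malt1 fell by 0.26 (edgeR adjusted p = 0.0369), a call lost in 7 of 15 alternatives, among them those without NC replicate 1 (edgeR adjusted p = 0.118), NC replicate 3 (0.0947) and miR-497 replicate 1 (0.155).

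Of 6 other IkappaB proteins and regulators, Nfkbiz, a nuclear IkappaB, fell (-0.43) and 5 did not pass the test, with a median log2 change of -0.17. That median was -0.36 without NC replicate 3, -0.31 without miR-497 replicate 1 and -0.075 without miR-497 replicate 2, and 2 of the 6 were called lower without miR-497 replicate 3. Among 14 ubiquitin ligases, deubiquitinases and their partners, 5 rose (35.7%), 4 fell (28.6%) and 5 did not pass the test, beside 23.8% higher and 26.0% lower of all tested genes. Their median log2 change was 0.031, and it was below 0 without NC replicate 3 (-0.012) and without miR-497 replicate 3 (-0.063). The paralogous substrate receptors of the ligase that marks IkappaB for degradation went opposite ways: Fbxw11 rose by 0.47 and Btrc fell (-0.74). Within the linear ubiquitin ligase, Sharpin rose by 0.39 and its catalytic partner Rnf31 fell (-0.54). Rbck1, also of that ligase, did not pass the test (0.012, edgeR adjusted p = 0.885). The negative regulators Tnfaip3 (A20), from 10.9 to 6.20 CPM (-0.82), and Cyld (-0.44) fell, while Tnip1, which binds A20, rose by 0.36. Usp21 rose by 0.25, and Itch rose by 0.22, a call lost without NC replicate 1 (edgeR adjusted p = 0.0571).

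**Figure D5:**
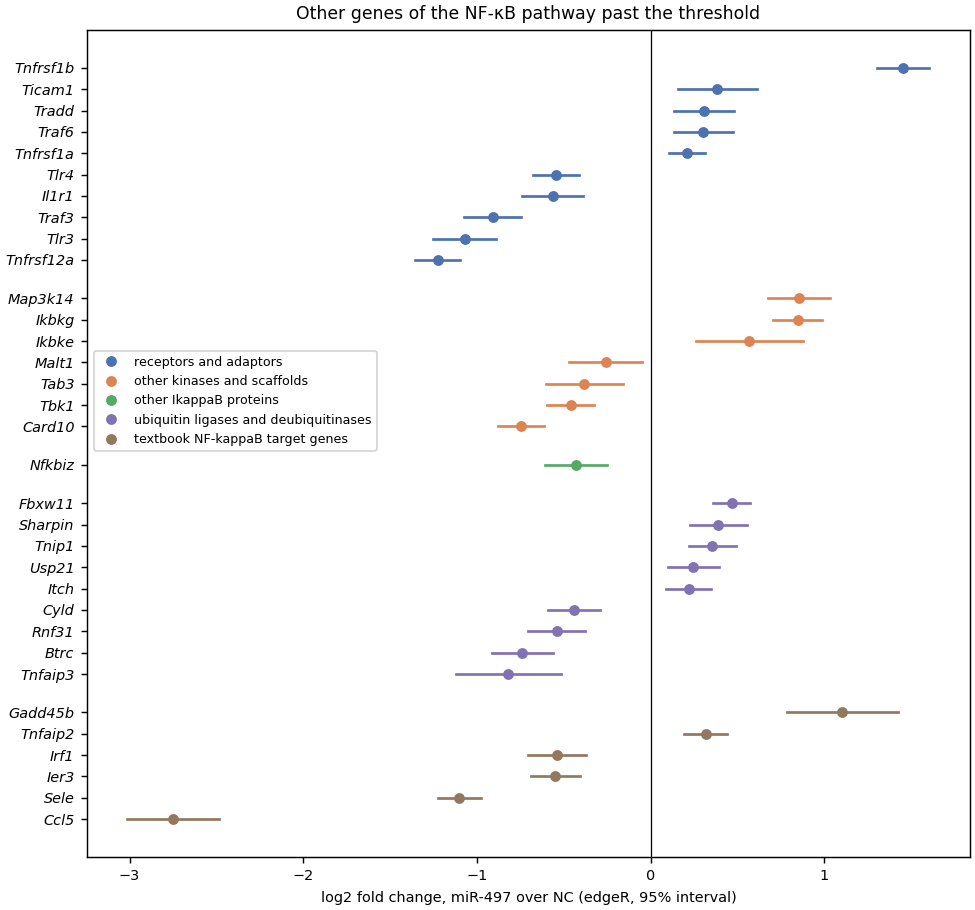
Log2 change with 95% interval (edgeR, miR-497 over NC) of the genes named as changed from each pathway list, coloured by list. Tnfaip3, on 2 lists, is drawn once. Tnfrsf1b (1.45) and Ccl5 (-2.75) are the extremes, and every list with more than 1 gene drawn holds changes in both directions.

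Downstream, more of the textbook NF-kappaB target genes fell than rose. Of 30 listed, 22 were tested, 2 rose (9.09%), 13 fell (59.1%) and 7 did not pass the test, beside 23.8% higher and 26.0% lower of all tested genes. Their median log2 change was -0.36 against -0.019 for all tested genes. Over the alternative analyses 10 to 13 fell and 2 to 4 rose, the 4 without miR-497 replicate 3. Among the listed targets not tested, Ccl2 and Cxcl10 are at 0 in every library, which is not read as absence. The genes that fell included the chemokine gene Ccl5, from 29.4 to 4.39 CPM (-2.75), and the endothelial adhesion molecule gene Sele (E-selectin), from 191 to 89.2 CPM (-1.10). Tnfaip3, given above, Ier3 (-0.55) and Irf1 (-0.54) fell too. The 2 that rose were Gadd45b, a stress-response gene (1.10), and Tnfaip2 (0.32). The members were left out of this list, though Nfkbia is itself such a target. Of the members with a strict kappaB match in a promoter, Nfkb2 rose, and Rel, Nfkbia and Nfkbie did not pass the test, as described above. RefSeq promoters were found for 23 of the 30 listed targets. Of the tested targets, 10 had a strict kappaB match in a promoter, of which 6 fell and 1 rose. Of the other 12 tested targets 7 fell and 1 rose. Some of these 12 had no promoter to search, so they are not a group known to lack the element. Several listed targets, Ccl5 and Irf1 among them, are also induced by interferon. In the same libraries, 20 of 20 interferon-stimulated genes fell, all at least 2-fold, with a median log2 change of -2.96. The part of the interferon-stimulated genes' fall in that of the NF-kappaB targets was not tested.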

How the data were processed

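Poly(A)-enriched RNA of 3 NC and 3 miR-497 libraries was sequenced. The deposited table holds raw counts per Ensembl gene, which the authors had not normalized. The submitters' processing notes name GRCm38, STAR 2.5.4b, featureCounts, Subread 1.6.1 and edgeR 3.32.1, with no roles. The strand setting, annotation release and treatment of reads with several alignments are not given in the sources used here. Every column was used, and groups came from the sample titles.

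Symbols came from GENCODE M21 (GRCm38), which matched 55141 of 55401 identifiers. Genes were filtered with filterByExpr (minimum count 10, minimum total 15), scaled with TMM and tested by group with edgeR 4.0.16 (quasi-likelihood F-test, 2-sided, R 4.3.3). The Benjamini-Hochberg adjustment covered all 14661 genes, and 0.05 was the threshold. CPM used TMM-scaled totals. The SE is the log2 change divided by the root of F. The script was tested on simulated data.

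The members and the gene lists were chosen with earlier results of these data known. From each list the genes named as changed had an adjusted p under 0.05 and a mean log2 CPM of at least 1. These were at most the 5 largest rises and 5 largest falls. For likeness, genes outside the members and lists had a mean log2 CPM of at least 2. The 15 alternatives comprised DESeq2 1.42.0 size factors and Wald test, upper-quartile scaling, no filter or a mean count of 50, limma 3.58.1 voom, GC and length offsets, a replicate block with and without those offsets, and leaving out each library. Sites were also counted in the shortest 3′ UTR.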

Additional observations from a re-analysis of the deposited data

How the results depend on the processing

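The members and the genes named as changed from the lists gave 645 pairs of a gene and an alternative, covering 43 genes. Of these pairs, 619 kept direction and side of the threshold and 25 lost the call. Only 1 gained it (Nfkbia with upper-quartile scaling) and 0 changed direction. Rela, Nfkb1 and Nfkbib kept their calls in all 15 alternatives. Members called higher numbered 2 to 4 when 1 library was left out, the 2 without NC replicate 2, and members called lower 2 to 3. Nfkb2 lost its call without a filter (adjusted p = 0.112, edgeR) and in 5 of the analyses that left out a library (0.0782 to 0.122). Ikbkb lost its call with DESeq2 size factors (0.0569), no filter (0.0564), the DESeq2 Wald test (0.0535) and without NC replicate 2, NC replicate 3 or miR-497 replicate 2 (0.0594 to 0.105). With upper-quartile scaling the list medians were -0.13 for receptors and adaptors and 0.078 for ubiquitin ligases. When 1 library was left out, medians ranged from -0.23 to -0.11 for receptors and adaptors, from -0.36 to -0.075 for other IkappaB proteins (1 to 2 called lower), from -0.042 to 0.016 for other kinases and scaffolds, from -0.063 to 0.048 for ubiquitin ligases, with -0.012 without NC replicate 3, and from -0.40 to -0.29 for NF-kappaB targets (2 to 4 called higher). With the shortest 3′ UTR, 1 member had a site. The cause of these shifts was not tested. Over all settings the median log2 change of all tested genes was -0.036 to 0.028.

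Same-numbered libraries did not deviate together (correlations of -0.12, -0.04 and -0.13), so the numbers were not treated as pairs. With the replicate block 3177 genes were called higher and 3563 lower. In that fit Nfkb2 (0.16, edgeR adjusted p = 0.103), Ikbkb (-0.17, edgeR adjusted p = 0.0752) and Malt1 (-0.26, edgeR adjusted p = 0.0551) lost their calls. Chuk lost its call with the block and GC and length offsets together (-0.17, edgeR adjusted p = 0.0699). With 3 libraries a group and 134 to 373 counts per library, the intervals of Rel, Relb and Nfkbie were the widest among the members.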
